A study of Mus musculus with 2 samples.

Results

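Levels of 6 genes of fatty acid uptake and lipid storage (Lpl, Fabp5, Plin2, Cd36, Msr1 and Soat1) were measured in myeloid cells of the mouse retina after light damage and in undamaged control retinas. The genes were given as a list of symbols, and all 6 were found once each among the 27998 gene identifiers of the count matrices. The light damage group came from male CB6F1 mice, a hybrid strain, aged 8 months and carrying the Cx3cr1-YFP reporter, whose pupils were dilated after a night in the dark and whose eyes were exposed to LED light of 10 klux for 4 h, followed by 5 days in normal light. The control group had the same strain, reporter, sex and age and is labelled as having had no light damage, although its record repeats the text of the light exposure. In these mice the fluorescent protein is tied to Cx3cr1, the fractalkine receptor gene that microglia use strongly, so the gate selects by activity of that gene and shares below are shares of sorted cells. Retinas of 5 to 8 mice were pooled for each group and digested with collagenase, live YFP-positive cells were sorted, and each pool gave 1 library made with the 10x Genomics protocol for transcript 3' ends. With 1 library per group, group and library cannot be told apart, no test between groups was possible, and all intervals given are exact 95% intervals that cover counting error only.

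The 6 genes stand at successive steps of lipid handling in macrophages. Lipoprotein lipase, encoded by Lpl, frees fatty acids from lipoprotein triglycerides outside the cell, while the scavenger receptors encoded by Cd36 and Msr1 bind modified lipoproteins and, for Cd36, long-chain fatty acids. Fabp5 encodes a carrier of fatty acids in the cytoplasm, Plin2 encodes perilipin 2, which coats lipid droplets, and Soat1 encodes the enzyme that esterifies cholesterol so that it can be stored in droplets. Photoreceptor outer segments are rich in membrane lipid, and phagocytes in a degenerating retina take up such debris.

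The light damage matrix held 6821 barcodes and 58187149 unique molecular identifiers (UMIs, each standing for 1 captured transcript), with a median of 7351 per barcode, against 4003 barcodes, 20056338 UMIs and a median of 4846 in the control matrix. After filtering, 6462 light damage cells and 3865 control cells were kept, and 47 of the 10824 barcodes of both matrices occurred in both. Cells were placed by summed markers per 10000 UMIs. Other macrophages had under 10 both for 5 microglia genes (P2ry12, Tmem119, Siglech, Gpr34 and P2ry13) and for 5 perivascular genes (Mrc1, F13a1, Cd163, Lyve1 and Cbr2), and were 1168 light damage and 244 control cells. Perivascular macrophages had at least 10 for the perivascular genes and were 84 and 52 cells. Microglia had at least 20 for the microglia genes and were 4422 and 3420 cells. A further 786 light damage and 144 control cells lay between the thresholds, and 2 and 5 cells passed both.

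The class names were checked against other markers. All 84 light damage and 52 control perivascular cells, all 4422 light damage microglia and 3419 of 3420 control microglia had at least 50 myeloid marker UMIs per 10000 (10 genes such as Tyrobp and C1qa). Of other macrophages, 97.4% did so in the light damage library and 69.7% in the control library. This check does not tell perivascular macrophages from microglia. Of perivascular cells, 30 of 84 in the light damage and 25 of 52 in the control library held at least 5 rod photoreceptor UMIs per 10000. Microglia markers at that level were held by 29 and 38 of them. Light damage other macrophages held 774 CPM of Ms4a7, 653 CPM of Gpnmb and 66.0 CPM of Ccr2, genes used by macrophages and monocytes, where CPM are the UMIs of a gene summed over the cells of a class, per 1000000 UMIs of that class. The full list of 8 such genes summed to 17660 CPM in this class and 1848 CPM in light damage microglia. In light damage perivascular macrophages it summed to 26554 CPM, so the list does not tell the 2 macrophage classes apart. Control other macrophages went against the name in part: 133 of 244 cells, against 28 of 1168 light damage cells, held at least 5 rod photoreceptor UMIs per 10000 (7 genes, summed level 15402 CPM, against 327 CPM in the light damage library). Endothelial or pericyte markers summed to 64.5 CPM in light damage and 556.5 CPM in control other macrophages, and bipolar or other neuron markers to 46.2 CPM and 705 CPM. Perivascular markers, although under the threshold in each cell, summed to 49.9 CPM in the light damage and 298 CPM in the control class. The control class is therefore described as cells low for both marker sums, and the ratios are given again below without cells that held rod or endothelial markers.

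Promoter sequences were available from RefSeq (build GRCm38.p6) for only 3 of the 6 genes, Plin2, Cd36 and Soat1, and these are shown. Plin2, like Fabp5, stood higher after light damage in all 3 classes. The summed levels of Cd36 and Soat1 lay on opposite sides of control in microglia and other macrophages. For Soat1 this held only where cells were not thinned in depth. A link between these sequences and the levels was not tested. Each line gives 300 bases on the minus strand around the annotated start, most of them before it, at chr4:86670010-86670309 for Plin2, chr5:17835847-17836146 for Cd36 and chr1:156474279-156474578 for Soat1.
Plin2: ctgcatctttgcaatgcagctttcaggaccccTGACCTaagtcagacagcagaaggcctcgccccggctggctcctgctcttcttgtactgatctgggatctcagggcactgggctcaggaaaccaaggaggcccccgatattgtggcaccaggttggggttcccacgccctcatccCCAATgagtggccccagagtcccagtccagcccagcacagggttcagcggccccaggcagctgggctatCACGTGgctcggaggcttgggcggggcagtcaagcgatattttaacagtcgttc
Cd36: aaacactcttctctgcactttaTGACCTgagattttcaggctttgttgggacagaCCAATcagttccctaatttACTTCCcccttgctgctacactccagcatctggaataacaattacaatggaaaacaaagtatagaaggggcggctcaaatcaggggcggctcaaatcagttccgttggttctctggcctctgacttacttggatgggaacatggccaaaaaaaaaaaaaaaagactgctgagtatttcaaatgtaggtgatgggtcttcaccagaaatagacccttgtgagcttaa
Soat1: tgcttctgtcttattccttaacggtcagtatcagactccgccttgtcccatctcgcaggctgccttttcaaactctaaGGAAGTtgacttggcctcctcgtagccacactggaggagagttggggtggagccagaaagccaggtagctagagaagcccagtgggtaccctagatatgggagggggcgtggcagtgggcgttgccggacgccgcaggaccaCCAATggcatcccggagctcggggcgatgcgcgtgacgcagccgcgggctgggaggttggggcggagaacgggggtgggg
Capitals mark matches, on either strand, to AGGTCA (a core element of nuclear receptors, seen as TGACCT on the other strand), CACGTG (an E-box), GGAAGT (a core for ETS factors, seen as ACTTCC on the other strand) and CCAAT. The Plin2 window held AGGTCA at bases 33 to 38, CCAAT at 178 to 182 and CACGTG at 247 to 252, counted from the 5′ end. The Cd36 window held AGGTCA at bases 23 to 28, CCAAT at 56 to 60 and GGAAGT at 75 to 80. In the Soat1 window GGAAGT lay at bases 79 to 84 and CCAAT at 221 to 225. Of 32851 RefSeq promoter windows of this length, 16.3% held AGGTCA, 7.15% CACGTG, 23.8% GGAAGT and 37.4% CCAAT, so such matches are common. TGANTCA (AP-1) and TATAAA were also searched and were in none of the 3 windows, while 7.81% and 13.6% of all windows held them.

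In GENCODE M21 (build GRCm38) all 6 genes are protein coding. Lpl lies on the plus strand of chromosome 8 at 68880491 to 68907448 and Fabp5 on the plus strand of chromosome 3 at 10012548 to 10016607. On minus strands lie Plin2 (chromosome 4, 86648386 to 86670060), Cd36 (chromosome 5, 17781690 to 17888801), Msr1 (chromosome 8, 39581685 to 39642673) and Soat1 (chromosome 1, 156424525 to 156474331). The Cd36 window above falls within the span of the gene, and Soat1 overlaps Gm37648 on the opposite strand. Of 50-base words from the last 500 bases of the genes' transcripts, where 3' end libraries read, none occurred in another annotated gene except 2.38% of those of Plin2, shared with Gm12551.

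In microglia, 5 of the 6 genes stood more than 1.5-fold higher after light damage and 1 stood lower. Fabp5 was 5.97-fold higher (interval 4.72 to 7.66), Lpl 4.60-fold (3.99 to 5.33), Msr1 3.86-fold (2.83 to 5.37), Cd36 2.86-fold (1.53 to 5.81) and Plin2 1.57-fold (1.43 to 1.73). Soat1 was at 0.688 of its control level (0.637 to 0.743). For comparison, 5.40% of the 5219 genes with at least 20 CPM in either library were over 1.5-fold higher and 6.84% over 1.5-fold lower. Of the 6 genes, 4 reached that minimum; Cd36 and Msr1 did not. In microglia the perivascular markers summed to 5.39 CPM in the light damage and 7.74 CPM in the control library, and rod markers to 116 CPM and 548 CPM. Without cells that held rod markers the microglial ratios were 6.10 for Fabp5, 4.62 for Lpl, 4.45 for Msr1, 3.23 for Cd36, 1.58 for Plin2 and 0.695 for Soat1.

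In other macrophages, 3 of the 6 genes were more than 1.5-fold higher after light damage (Fabp5, Lpl and Plin2) and Cd36 was lower, beside 22.9% of 5857 genes higher and 28.4% lower. Without cells that held rod markers the ratios in this class were 13.8 for Fabp5, 4.58 for Lpl, 3.41 for Plin2, 1.21 for Soat1, 1.04 for Msr1 and 0.124 for Cd36. Without cells that held endothelial markers they were 15.1 for Fabp5, 5.30 for Lpl, 3.20 for Plin2, 1.29 for Soat1, 1.04 for Msr1 and 0.122 for Cd36. In perivascular macrophages, 3 were higher (Fabp5, Plin2 and Msr1) and Cd36 was lower, beside 22.0% of 4969 genes higher and 15.3% lower. Without cells that held rod markers, 54 light damage and 27 control perivascular cells remained. No Cd36 ratio could then be given, and the ratios that could be given kept their direction. That class is small, and the intervals of Fabp5 and Msr1 reached below 1.5-fold, to 1.40 and 1.29. Its members also depend on the threshold. When at least 20 perivascular UMIs per 10000 were required (23 light damage and 16 control cells), Msr1 alone was higher (2.90-fold), while Fabp5 was at 1.47, Plin2 at 1.05 and Soat1 at 0.425 of the control level.

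**Figure D1:**
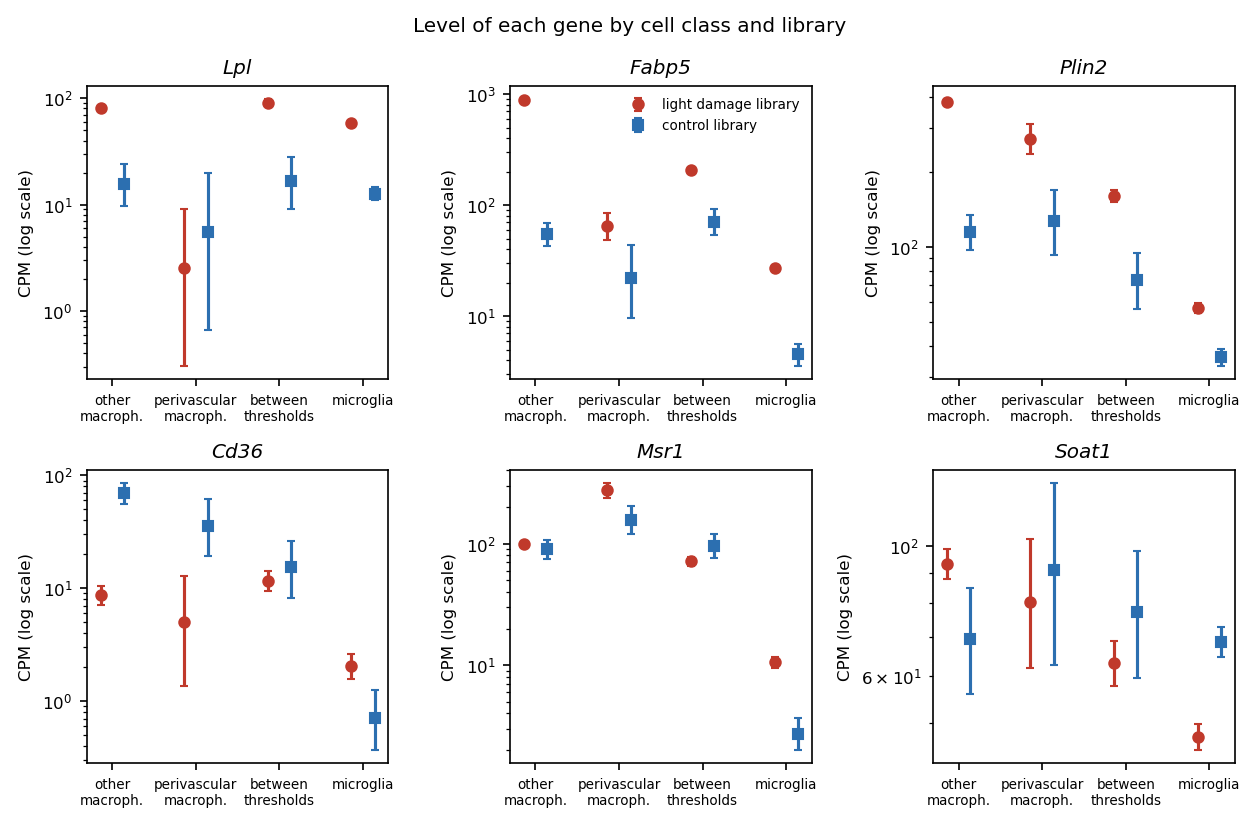
Level of each gene in CPM (log scale) in other macrophages, perivascular macrophages, cells between the thresholds and microglia, for the light damage library (circles) and the control library (squares); bars are exact 95% Poisson intervals. Fabp5 in light damage other macrophages stood at 880 CPM, Lpl in perivascular macrophages was at or under 5.53 CPM in both libraries, and Cd36 was higher in the control library in other and perivascular macrophages.

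Lpl, the secreted lipase, stood at like levels in other macrophages and microglia of the same library, was higher after light damage in both, and was almost missing from perivascular macrophages. Other macrophages held 80.3 CPM in the light damage library (75.4 to 85.3) and 15.7 CPM in the control library (9.70 to 23.9), a ratio of 5.12 (3.33 to 8.31). Perivascular macrophages held 2 UMIs in each library, which is 2.51 CPM (0.304 to 9.08) in the light damage and 5.53 CPM (0.669 to 19.96) in the control library. No fold is given for counts this low. Microglia held 58.3 CPM in the light damage library (55.8 to 61.0) and 12.7 CPM in the control library (11.0 to 14.5). The light damage levels of other macrophages and microglia thus lay well above all control levels. Among control classes the levels did not differ beyond their intervals. Within the light damage library, other macrophages exceeded microglia 1.38-fold (1.27 to 1.49).

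Shares of cells with an Lpl UMI were also higher after light damage in microglia and other macrophages. Microglia stood slightly above other macrophages in both libraries, but the intervals of the thinned shares overlapped. For these shares each cell was thinned to 3000 UMIs, and shallower cells were left out. Those were 603 control microglia, 72 control other macrophages and 6 control perivascular macrophages, and 0 light damage cells of these classes. After thinning, 13.95% of 4422 light damage microglia (12.9% to 15.01%) and 3.41% of 2817 control microglia (2.77% to 4.15%) had a UMI. In other macrophages the thinned shares were 11.4% of 1168 light damage cells and 2.91% of 172 control cells. Perivascular macrophages, which serve here as the class with least Lpl, had 0 of 84 thinned light damage cells (interval up to 4.30%) and 0 of 46 control cells (up to 7.71%). Unthinned shares were 23.3% and 4.51% in other macrophages, 25.4% and 5.35% in microglia, at median depths of 6794 and 4796 UMIs, and 2.38% and 1.92% in perivascular macrophages, at 9318.5 and 7034.5 UMIs. Perivascular cells were thus deeper than microglia and had the lower share in both libraries.

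Cd36, the fatty acid and scavenger receptor, was scarce and was the only one of the 6 genes with a lower level after light damage in other macrophages. There it had 110 UMIs, 8.65 CPM (7.11 to 10.4), in the light damage library and 93 UMIs, 69.4 CPM (56.0 to 85.0), in the control library, 8.02-fold lower after light damage (6.02 to 10.7). In perivascular macrophages it had 4 UMIs, 5.03 CPM, in the light damage library and 13 UMIs, 35.9 CPM, in the control library, 7.15-fold lower (2.21 to 30.1). In microglia it had 67 UMIs, 2.04 CPM (1.58 to 2.59), in the light damage library and 12 UMIs, 0.714 CPM (0.369 to 1.25), in the control library. The direction in microglia was thus opposite to that in both macrophage classes. The thinned share of cells with a UMI was 1.71% in light damage and 9.30% in control other macrophages, against 0.430% and 0.142% in microglia.

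The cells that held Cd36 were looked at by their other markers. Of the 93 UMIs in control other macrophages, 5 lay in the 19 cells with endothelial or pericyte markers, and without those cells the light damage level was 8.18-fold lower. Cells with at least 5 perivascular marker UMIs per 10000 numbered 45 of 1168 in the light damage and 52 of 244 in the control class. They were not left out alone. When both marker sums had to be under 5, which drops them and other cells, 609 light damage and 121 control cells remained. Cd36 was still lower after light damage there. The 133 control cells with rod markers held 68.0 CPM and the 111 others 70.7 CPM, and without the rod-marker cells of both libraries the difference was 8.05-fold. In control perivascular macrophages, by contrast, 12 of the 13 Cd36 UMIs lay in the 25 cells with rod markers; without such cells both libraries had at most 3 UMIs and the difference could not be given. The part that these markers play in the result was not tested. In control other macrophages 3 cells held 49.5% of the Cd36 UMIs, and the highest cell had 27. In light damage microglia 21 of the 67 UMIs lay in 63 dividing cells, at 18.9 CPM, against 1.45 CPM in the 4359 remaining cells. Without dividing cells the microglial ratio was 2.03.

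Msr1, the class A scavenger receptor, was highest in perivascular macrophages in both libraries. These held 274 CPM in the light damage library (239 to 313) and 157.5 CPM in the control library (119 to 204), a ratio of 1.74 (1.29 to 2.37). Other macrophages held 98.3 CPM (93.0 to 104) after light damage and 89.5 CPM (74.2 to 107) in the control library, and these intervals overlapped (ratio 1.10, 0.910 to 1.34). Microglia held 10.6 CPM (9.49 to 11.7) in the light damage and 2.74 CPM (2.004 to 3.65) in the control library. Within the light damage library perivascular macrophages exceeded microglia 25.9-fold (21.8 to 30.8) and other macrophages exceeded them 9.30-fold (8.25 to 10.5). In the control library the same ratios were 57.5 (38.3 to 86.8) and 32.7 (23.1 to 47.0), so Msr1 separated the classes in both libraries. Thinned shares were 48.8% of light damage and 30.4% of control perivascular macrophages, 18.9% and 21.5% of other macrophages, and 1.97% and 0.746% of microglia.

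The Msr1 ratio in other macrophages depended on which control cells were counted. It was 0.853 when only cells with at least 50 myeloid marker UMIs per 10000 were kept, and 1.61 when both marker sums had to be under 5.

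Fabp5, the fatty acid carrier, had the widest range of levels over classes and libraries. Other macrophages held 880 CPM in the light damage library (864 to 897) and 54.5 CPM in the control library (42.7 to 68.5), a ratio of 16.2 (12.8 to 20.6). Perivascular macrophages held 65.3 CPM (48.8 to 85.7) after light damage and 22.1 CPM (9.54 to 43.6, 8 UMIs) in the control library, a ratio of 2.96 (1.40 to 7.21). Microglia held 27.0 CPM (25.3 to 28.9) in the light damage and 4.52 CPM (3.56 to 5.66) in the control library. Light damage was the higher library in all 3 classes, and the intervals of the libraries did not overlap in any of them. Within the light damage library, other macrophages exceeded microglia 32.6-fold (30.4 to 34.9) and perivascular macrophages exceeded microglia 2.42-fold (1.79 to 3.20). That last ratio turned to 0.980 with a microglia threshold of 10 and was 1.46 with a perivascular threshold of 20. In the control library other macrophages exceeded microglia 12.04-fold (8.61 to 16.8).

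Thinned shares of cells with a Fabp5 UMI were 32.9% of light damage and 8.14% of control other macrophages, against 4.91% and 0.888% of microglia. Unthinned, they were 43.3% and 7.79% of other macrophages, at median depths of 9810.5 and 5230 UMIs, and 10.4% and 1.17% of microglia. With the thresholds used here, microglia were the class with the lowest Fabp5 level in each library. With cells thinned, the ratio of light damage to control in other macrophages was 7.82, with 621 CPM in the light damage and 79.5 CPM in the control library.

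Plin2, the droplet coat gene, stood higher in both macrophage classes than in microglia and higher after light damage in each class. Other macrophages held 380 CPM (370 to 391) in the light damage and 115 CPM (97.5 to 134.5) in the control library, a ratio of 3.31 (2.82 to 3.91). Perivascular macrophages held 271 CPM (236 to 310) after light damage and 127 CPM (93.0 to 170) in the control library, a ratio of 2.14 (1.55 to 3.004). Microglia held 56.7 CPM (54.15 to 59.3) in the light damage and 36.1 CPM (33.3 to 39.1) in the control library. The smallest difference was thus in microglia, where it passed 1.5-fold narrowly. It was 1.25 when microglia had to have 40 marker UMIs per 10000, 1.45 with cells thinned and 1.40 as a mean of CPM per cell. In the light damage library other macrophages exceeded microglia 6.71-fold (6.36 to 7.08) and perivascular macrophages 4.79-fold (4.14 to 5.51). Thinned shares were 51.4% of light damage and 22.7% of control other macrophages, 39.3% and 23.9% of perivascular macrophages, and 12.9% and 9.23% of microglia.

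Soat1, the cholesterol esterification gene, was the only one of the 6 genes with a lower level in microglia after light damage. Other macrophages held 93.3 CPM (88.1 to 98.8) in the light damage and 69.4 CPM (56.0 to 85.0) in the control library, a ratio of 1.34 (1.09 to 1.68). Perivascular macrophages held 80.4 CPM (61.9 to 103) after light damage and 91.2 CPM (62.8 to 128) in the control library, and the intervals overlapped. Microglia held 47.2 CPM (44.9 to 49.6) in the light damage and 68.6 CPM (64.7 to 72.7) in the control library. In the control library all classes lay between 68.6 and 91.2 CPM with overlapping intervals, and other macrophages were at 1.01 of microglia (0.810 to 1.25). In the light damage library other macrophages exceeded microglia 1.98-fold (1.83 to 2.13) and perivascular macrophages exceeded them 1.70-fold (1.31 to 2.19). Thinned shares were 12.8% of light damage and 16.5% of control microglia, against 19.2% and 20.3% of other macrophages. The ratio in other macrophages was 0.943 with cells thinned and 72 shallower control cells left out, so its direction there was not kept.

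**Figure D2:**
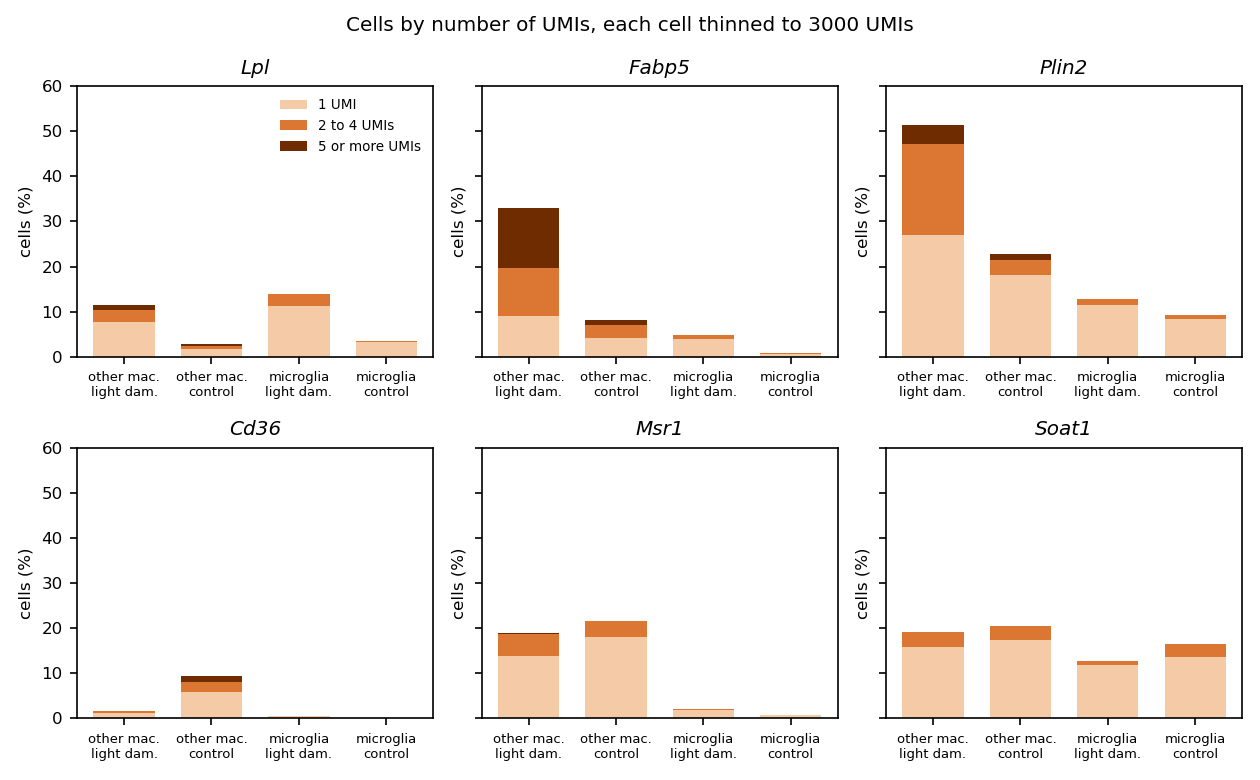
Share of cells (%) with 1, 2 to 4, or 5 or more UMIs of each gene after cells were thinned to 3000 UMIs, in light damage and control other macrophages and light damage and control microglia. Cells with under 3000 UMIs, all of them control cells, were left out. In light damage other macrophages 13.2% of cells had 5 or more Fabp5 UMIs, while Lpl in microglia was spread thinly, with 11.3% of light damage cells at 1 UMI.

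Set against microglia of the same library, 5 of the 6 genes were over 1.5-fold higher in light damage other macrophages, beside 13.8% of 5350 genes higher and 17.8% lower, and Lpl alone was within 1.5-fold. In light damage perivascular macrophages 5 were higher and Lpl was lower, beside 15.7% of 5419 genes higher and 31.0% lower; the median log2 ratio of all these genes was -0.30. The shares of all genes cover those with at least 20 CPM in either class, which Cd36 did not reach in the light damage library. Of the 5 members that did, 4 were higher in each of these macrophage classes. The Cd36 value in light damage perivascular macrophages rests on 4 UMIs, and its interval (0.652 to 6.60) included 1. In the control library 4 of the 6 genes were higher in other macrophages than in microglia (Cd36 97.2-fold, Msr1 32.7-fold, Fabp5 12.04-fold and Plin2 3.19-fold), beside 25.0% of 6020 genes higher and 25.9% lower. In control perivascular macrophages the same 4 were higher (Msr1 57.5-fold, Cd36 50.3-fold, Fabp5 4.89-fold and Plin2 3.52-fold), beside 16.1% of 5450 genes higher and 40.1% lower. Lpl there was at 0.436 of the microglial level on 2 UMIs, with an interval (0.0524 to 1.59) that included 1.

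The 6 genes were next followed along the microglia marker sum, in bands of 0 to 5, 5 to 10, 10 to 20, 20 to 40, 40 to 80 and 80 or more UMIs per 10000, with perivascular macrophages left out. The first 2 bands are the other macrophages and the last 3 the microglia. In the light damage library Fabp5 was at 1123, 588, 206, 39.9, 13.4 and 13.6 CPM from the lowest to the highest band. Plin2 was at 501, 235, 160, 69.1, 43.4 and 49.2 CPM. Both genes declined from band to band up to 40 to 80. Msr1 was at 93.7, 104, 71.5, 16.1, 4.95 and 0 CPM, with 0 UMIs in the 114 cells of the top band. Lpl was at 95.9, 61.5, 90.6, 72.1, 44.2 and 33.9 CPM, a shallow gradient. Soat1 was at 107 CPM in the lowest band and between 45.1 and 49.2 CPM in the 3 highest.

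In the control library Lpl was at 15.8, 15.4, 16.6, 24.0, 11.6 and 9.24 CPM over the same bands, below the light damage value in each of them. Fabp5 was at 40.9, 72.1, 71.2, 16.9, 2.84 and 2.08 CPM, and Plin2 at 114, 117, 73.6, 43.1, 33.5 and 38.6 CPM. Msr1 was at 75.2, 108, 96.1, 10.7, 1.66 and 1.16 CPM, close to the light damage values in the 5 to 10 band. Soat1 stayed between 64.0 and 77.3 CPM throughout, with no gradient. Cd36 had its highest level of any band in the lowest control band, at 102 CPM (80.2 to 127), against 11.4 CPM (9.02 to 14.2) in that band after light damage.

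Because light damage microglia had lower marker sums (median 41.3, against 65.8 per 10000 in control microglia), levels were also compared within a band. In the 40 to 80 band Lpl was at 44.2 CPM (40.9 to 47.6) in 2250 light damage cells and 11.6 CPM (9.64 to 13.9) in 1956 control cells. Fabp5 was at 13.4 CPM (11.7 to 15.4) and 2.84 CPM (1.90 to 4.07), and Msr1 at 4.95 CPM (3.90 to 6.196) and 1.66 CPM (0.969 to 2.66). Plin2 was at 43.4 CPM (40.2 to 46.8) and 33.5 CPM (30.0 to 37.2), and Soat1 at 45.1 CPM (41.8 to 48.6) and 64.0 CPM (59.2 to 69.1). All of these intervals were apart within the band, in the same directions as over all microglia. Cd36 was at 0.847 CPM (0.451 to 1.45) and 0.293 CPM (0.0605 to 0.858) in that band, with overlapping intervals. In the 20 to 40 band Cd36 was at 3.20 and 2.67 CPM, and its intervals overlapped again. Msr1 overlapped there too, at 16.1 CPM (14.2 to 18.1) and 10.7 CPM (6.83 to 15.9), while Lpl, Fabp5, Plin2 and Soat1 stayed apart. In the band of 80 or more, only Lpl and Fabp5 had intervals that were apart.

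**Figure D3:**
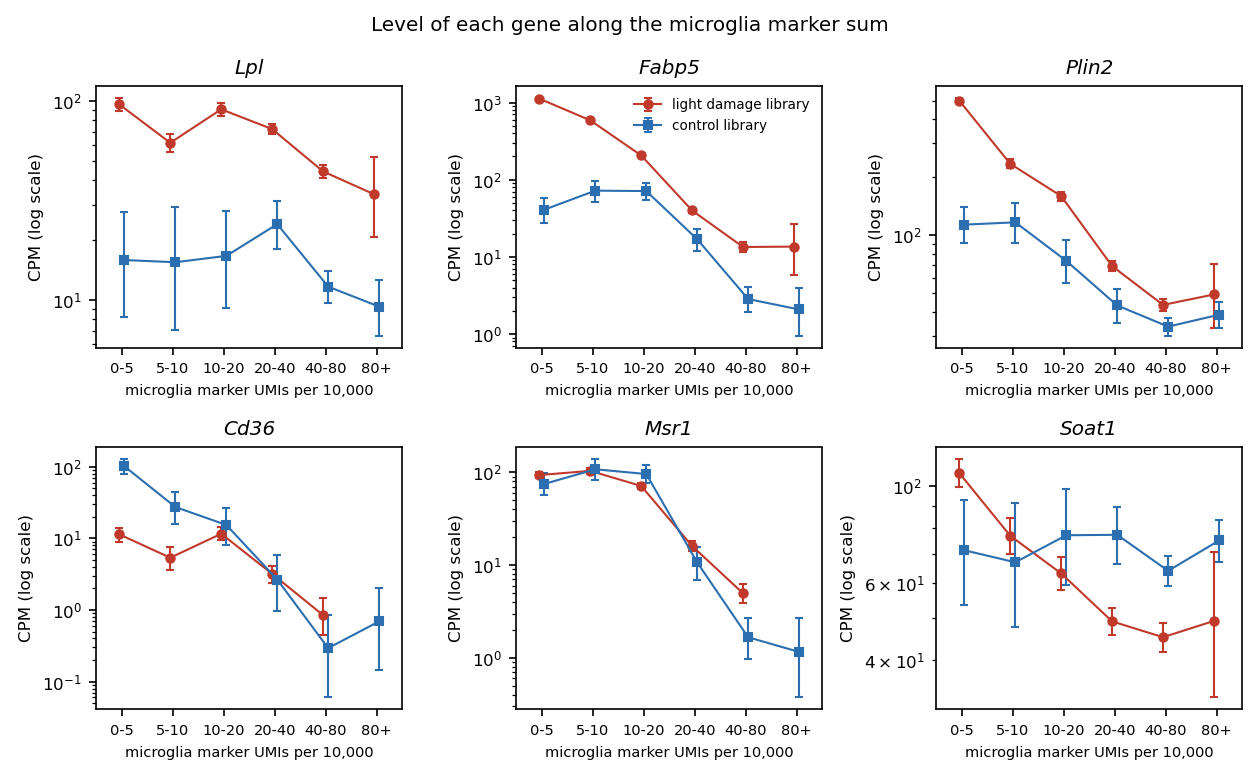
Level of each gene in CPM (log scale) along the sum of 5 microglia markers per 10000 UMIs, from low to high, in the light damage library (circles) and the control library (squares), with exact 95% Poisson intervals; the light damage values of 0 for Cd36 and Msr1 in the top band are not drawn. After light damage Fabp5, Msr1, Cd36 and Plin2 were all higher toward cells with few microglia markers, Cd36 reached 102 CPM in the lowest control band, and control Soat1 was level.

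Light damage other macrophages were not uniform. Cells with at least 5 UMIs per 10000 of Lgals3 (galectin-3) plus Mmp12 (a macrophage metalloprotease) numbered 511, against 657 with fewer. The split rests mostly on Lgals3, which had a UMI in 60.4% of the 1168 thinned cells, against 4.45% for Mmp12. Fabp5 was at 1606 CPM (1575 to 1637) in these 511 cells and 138 CPM (129 to 147.5) in the rest, and the 511 cells held 92.3% of its UMIs in the class. Lpl was at 127 CPM (118 to 136) and 32.8 CPM (28.5 to 37.6), Plin2 at 530 and 228 CPM, and Soat1 at 126 and 59.8 CPM. Msr1 differed little, at 108 and 88.2 CPM. Cd36 went the other way, at 7.16 CPM (5.24 to 9.55) and 10.2 CPM (7.84 to 13.01), with overlapping intervals. In control other macrophages 26 of 244 cells were on the high side of this split. They held 367 CPM of Fabp5 (275 to 480, 53 UMIs) and 222 CPM of Cd36 (152 to 313, 32 UMIs), against 16.7 CPM and 51.0 CPM in the 218 others. The highest cell of this control class had 27 Cd36 UMIs, and its side of the split was not looked up. The Cd36 value may therefore rest on few cells. Median depth in the light damage library was 11150 UMIs in the 511 cells and 8754 in the rest.

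A split by Gpnmb (a glycoprotein gene of phagocytes) plus Ms4a7 gave another order for Lpl. In the 723 cells with at least 5 UMIs per 10000, Fabp5 was at 1168 CPM and in the 445 others at 353 CPM. Lpl was at 55.2 CPM (50.3 to 60.6) in the 723 cells and 126 CPM (116 to 137) in the others. Lpl and Fabp5 were thus both higher where the sum of Lgals3 and Mmp12 was high. Where the sum of Gpnmb and Ms4a7 was high, Lpl was lower and Fabp5 higher. Plin2 was at 403 and 340 CPM, Soat1 at 105 and 71.2 CPM and Msr1 at 93.6 and 107 CPM. In the 21 cells with at least 5 UMIs per 10000 of Cst7, a gene of activated microglia, Lpl was at 451 CPM (352 to 570), against 75.7 CPM (70.9 to 80.6) in the 1147 others.

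Few light damage microglia carried these markers. The 101 microglia with Cst7 at 5 or more per 10000 held 92.7 CPM of Lpl (73.7 to 115), against 57.4 CPM (54.8 to 60.1) in the 4321 others. Fabp5 was at 99.6 CPM (79.8 to 123) and 25.04 CPM (23.3 to 26.8), and Plin2 at 127 CPM (105 to 153) and 54.8 CPM (52.2 to 57.4). These cells held 4.23% of microglial Lpl UMIs, so most Lpl in microglia lay outside them. The 29 microglia with Lgals3 plus Mmp12 at that level held 12.3% of Fabp5 UMIs, at 363 CPM (298 to 437), against 23.9 CPM in the rest.

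**Figure D4:**
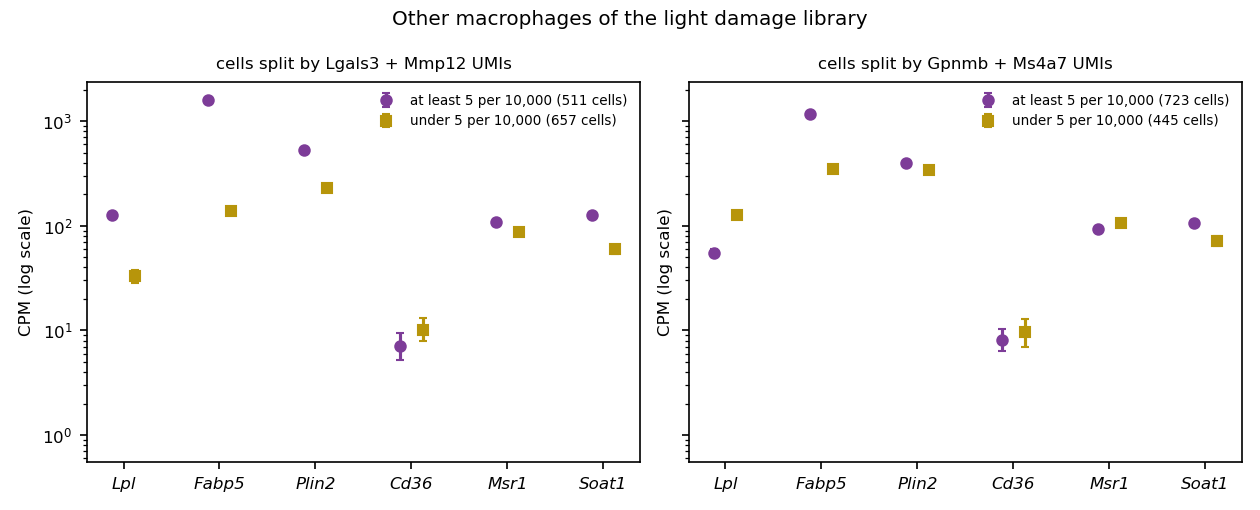
Level of each gene in CPM (log scale) in light damage other macrophages split by Lgals3 plus Mmp12 (left) and by Gpnmb plus Ms4a7 (right), at least 5 per 10000 UMIs (circles) against under 5 (squares); bars are exact 95% Poisson intervals. Fabp5 was higher on the marker-high side of both splits, while Lpl was higher in marker-high cells on the left and in marker-low cells on the right.

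Most Lpl and Fabp5 UMIs lay in a small part of the light damage other macrophages, although 43.3% of these cells had a Fabp5 UMI before thinning. There the 117 cells with most Lpl held 81.9% of its UMIs, with 53 in the highest cell, and the 117 cells with most Fabp5 held 76.2% of its UMIs, with 221 in the highest. The top 117 cells held 55.7% of Msr1, 47.4% of Plin2 and 43.8% of Soat1 UMIs, so the UMIs of these 3 genes were less concentrated. In light damage microglia the 45 cells with most of a gene held 91.0% of Cd36, 42.1% of Msr1, 41.5% of Fabp5, 15.9% of Plin2, 14.9% of Lpl and 9.68% of Soat1 UMIs. Such a share is bound to be high for a scarce gene. Only 51 microglia had a Cd36 UMI, 234 an Msr1 UMI and 460 a Fabp5 UMI. For Lpl, Plin2 and Soat1 the numbers were 1125, 1223 and 1247. The microglial shares are therefore not read as differences in spread.

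Within light damage other macrophages thinned to 3000 UMIs, the pattern of Fabp5 over the 1168 cells was most like those of Gpnmb (Pearson r = 0.685), Spp1 (0.607), which encodes osteopontin, and Ctsb (0.587), which encodes the lysosomal protease cathepsin B, among 7689 genes. Lpl was most like Cd9 (0.297), Rnf128 (0.289) and Pmp22 (0.281), and Plin2 was most like Lgals3 (0.343), Plk2 (0.278) and Cd68 (0.269). Msr1 was most like Ch25h (0.213), and no gene reached 0.2 for Cd36 (highest 0.192) or Soat1 (highest 0.196). In light damage microglia no gene reached 0.2 for any of the 6, and the highest r was 0.163 for Fabp5, 0.124 for Cd36, 0.107 for Plin2, 0.100 for Msr1, 0.074 for Lpl and 0.067 for Soat1. All cells of these correlations come from 1 library, so no p is given.

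Each of the 6 genes had a UMI in a minority of thinned microglia, so few of these cells held a given pair. After thinning, Fabp5 had a UMI in 4.86% of the 617 light damage microglia with Lpl (3.30% to 6.87%) and in 4.92% of the 3805 without. Plin2 had a UMI in 22.6% of the 217 microglia with Fabp5 (17.2% to 28.7%) and in 12.4% of those without. In light damage other macrophages Fabp5 was seen in 51.9% of the 133 cells with Lpl (43.1% to 60.6%) and in 30.4% of those without, and Plin2 in 64.1% of the 384 cells with Fabp5 (59.0% to 68.9%) and in 45.2% of those without. Fabp5 was thus more frequent among other macrophages with Lpl than among those without, although only 69 of the 384 cells with Fabp5 had an Lpl UMI, while in microglia the shares differed by less than their counting intervals.

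Other genes of lipid handling in microglia were described from 8 lists holding 89 genes, of which 88 were found in the matrices. Of the 43 that reached 20 CPM in either library, 2 were over 1.5-fold higher after light damage, and 1 was lower, beside the 5.40% and 6.84% given above for all genes. Their median log2 ratio was 0.06, against -0.02 for all genes tested. Apoc1, an apolipoprotein that inhibits lipoprotein lipase, was at 28.4 CPM in light damage and 3.04 CPM in control microglia, 9.37-fold higher (7.06 to 12.7). Cxcl16, a membrane chemokine that also binds oxidised lipoprotein, was at 156 and 92.4 CPM, 1.69-fold higher (1.59 to 1.79). Tfeb, a transcription factor for lysosomal genes, was at 16.3 and 25.3 CPM, a ratio of 0.644 (0.566 to 0.734).

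By list, none of 9 measured genes of mitochondrial fatty acid oxidation, 7 of droplet and lysosomal lipolysis, 5 of fatty acid transport, binding and activation, 4 of triglyceride and sterol ester synthesis, or 3 of droplet coat and assembly passed 1.5-fold in microglia. Plin3, another perilipin, was at 40.2 CPM in light damage and 43.7 CPM in control microglia (ratio 0.920, 0.840 to 1.01), beside Plin2 at 1.57. Among lipoprotein lipase partners 1 of 4 was higher, among scavenger and lipoprotein receptors 1 of 6, and among lipid-sensing transcription factors 1 of 5 was lower. Against light damage microglia, 14 of 44 such genes were higher and 8 lower in light damage other macrophages, beside the 13.8% and 17.8% of all genes. Their median log2 ratio was 0.00, against -0.07 for all genes.

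**Figure D5:**
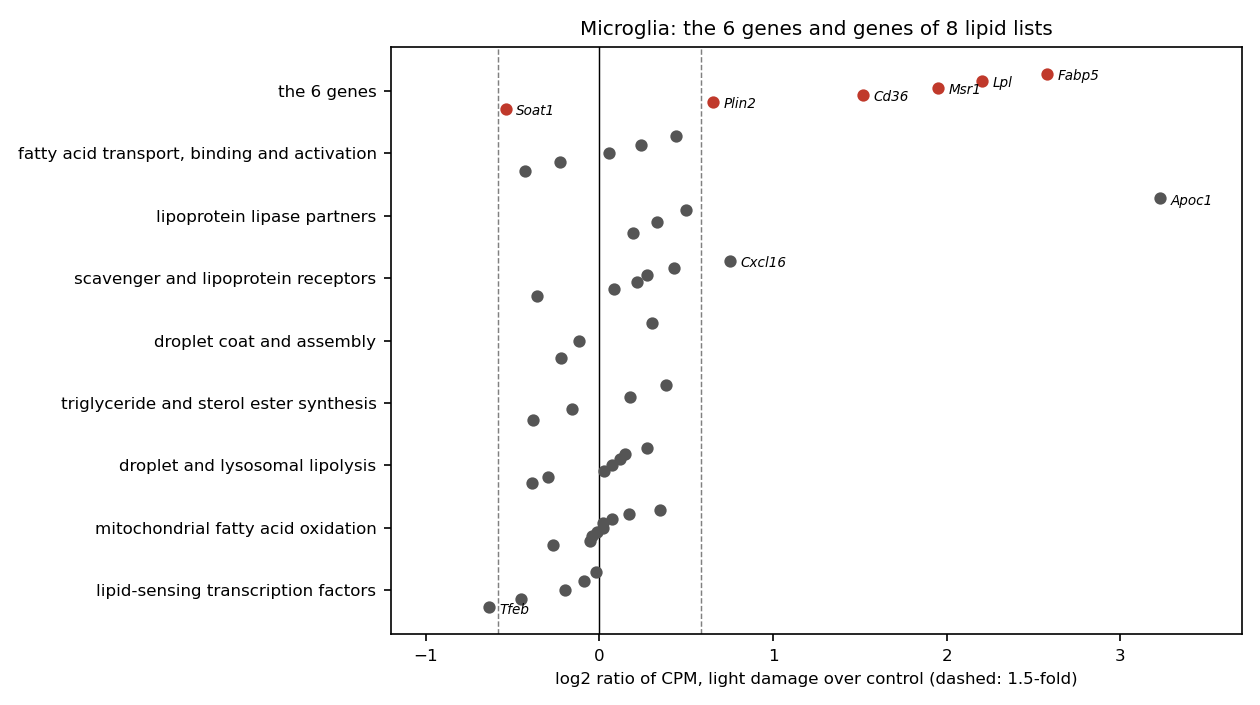
Log2 ratio of CPM in light damage over control microglia for the 6 genes (top row) and for the genes of 8 lipid lists with at least 20 CPM in either library; dashed lines mark 1.5-fold. Apart from Apoc1, Cxcl16 and Tfeb, the 43 listed genes lay within 1.5-fold, while 5 of the 6 genes in the top row lay to the right of it. The minimum was not applied to the top row, where Cd36 and Msr1 did not reach it. Of the 4 genes there that did, 3 lay to the right.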

How the data were processed

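For each library the authors deposited a matrix of UMI counts per gene and cell barcode; the submitters' processing notes name Cell Ranger 2.0.0 and build mm10, while the strand setting is not given in the sources used here. Barcodes were kept with 300 genes or more and a mitochondrial share up to 10% (6799 light damage, 3948 control). Scrublet in scanpy 1.11.5 marked 0 doublets automatically in either library, so the highest scores were removed, up to 0.8% per 1000 barcodes with ties at the limit kept (337 and 83). Counts were summed per class and library and scaled to CPM. Intervals are exact Poisson (levels), exact conditional (ratios) and Clopper-Pearson (shares), from scipy 1.17.1, and cover counting error only; no interval covers variation between mice or libraries. A gene was called past 1.5-fold with at least 20 CPM in either group for the background; the 6 genes were all counted. Shares came from cells thinned to 3000 UMIs (seed 1), with shallower cells left out. No fold was given where both groups had at most 3 UMIs. Outside the 6 genes, listed genes were named when among the 2 highest or 2 lowest ratios past 1.5-fold per list, and alike genes when r was at least 0.2 and at least 2% of cells had a UMI. The members, lists and strata were chosen with earlier results of these data known. Of the 27998 identifiers, 27722 were found in GENCODE M21, and 56 symbols had more than 1 identifier. The ratio code was tested on simulated counts.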

Additional observations from a re-analysis of the deposited data

Results flagged for a closer look

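Cd36 went opposite ways in different classes under the same contrast. The ratio of light damage to control was 2.86 in microglia (67 and 12 UMIs), 0.140 in perivascular macrophages (4 and 13 UMIs) and 0.125 in other macrophages (110 and 93 UMIs), and the counting interval lay above 1 in microglia and below 1 in both macrophage classes. In microglia the intervals of the libraries overlapped within the marker bands of 20 to 40 and 40 to 80, and in control perivascular macrophages 12 of the 13 UMIs lay in cells with rod markers, without which no fold could be given.

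Soat1 also went opposite ways, with a ratio of 1.34 in other macrophages and 0.688 in microglia, and with intervals on opposite sides of 1. With cells thinned to 3000 UMIs and shallower control cells left out, the ratio in other macrophages was 0.943, so its direction there was not kept. In perivascular macrophages the unthinned ratio was 0.882. For both genes the difference between classes was not tested, since each group is 1 library.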

How the results depend on the processing

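No paired analysis was possible because each group is 1 library. Over 16 alternatives to the processing, 457 of 462 ratios of the 6 genes kept their direction and 37 moved over 1.5 times. Part of the 462 could not change direction. An equal amount added to both sides cannot reverse a ratio, and some alternatives left the cells of a comparison unchanged. A perivascular threshold of 20, for example, kept the same 1168 and 244 other macrophages. The tally thus overstates how stable the directions were. Adding 10 CPM to both sides left 3 genes higher in microglia after light damage (5 otherwise); a mean of CPM per cell put 1 gene, Soat1, past 1.5-fold lower (0 otherwise). With a perivascular threshold of 20, 1 gene was higher in perivascular macrophages after light damage (3 otherwise) and 3 were higher there than in microglia (5 otherwise). Of other lipid genes in microglia, 11 were higher and 5 lower with no minimum level, 1 higher and 0 lower with a minimum of 50 CPM, and 0 lower after thinning or with the added 10 CPM (2 higher and 1 lower otherwise). In other macrophages over microglia, 30 were higher and 14 lower with no minimum, 3 lower with a minimum of 50 CPM and 5 lower with the added 10 CPM (14 and 8 otherwise).

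Alternatives chosen after seeing the data were leaving out cells with rod markers, leaving out cells with endothelial markers, and a microglia threshold of 10. Without rod-marker cells 0 genes were lower in perivascular macrophages (1 otherwise, Cd36). With a microglia threshold of 10, 3 genes were higher in perivascular macrophages than in microglia, and Fabp5 there reversed to a log2 ratio of -0.029 (1.27 otherwise). The cause of these shifts was not tested, except that a lower threshold adds cells with fewer microglia markers. Low counts limit Cd36 in all classes, and the 84 and 52 cells limit perivascular macrophages.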
